A study of Mus musculus with 1989 samples.

Results

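Cd4, Cd8a and Cd8b1, the 3 genes that encode the coreceptors of T cells, were followed through mouse thymocyte development. They were chosen by name: 3 of the 8846 genes in a table of single-cell RNA sequencing (scRNA-seq), read in all of its 1993 cells, and the peaks around them in a table of single-cell chromatin accessibility (scATAC-seq) of 138317 peaks and 1626 cells. The cells came from thymus of male mice aged 7 weeks per the labels, and the study's methods name the strain as C57BL/6; no transgene, deletion or treatment is given for any group. The scRNA-seq data are 1 library of whole thymus. The scATAC-seq cells were 182 double-negative (DN), 125 double-positive (DP), 119 CD4 and 116 CD8 sorted thymocytes and 1084 cells of total thymus in 36 numbered series of labels. No label ties a cell to an animal, so each class or sort counts as 1 sample. No test was possible, and all intervals are exact 95% intervals that cover counting error only.

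CD4 binds MHC class II and CD8 binds MHC class I, and both bring the kinase Lck to the T cell receptor. CD8 on conventional T cells is a pair of chains, with CD8α encoded by Cd8a and CD8β by Cd8b1, while some dendritic cells carry CD8α alone or CD4. A thymocyte starts without either coreceptor (DN), passes through an immature CD8 single-positive (ISP) stage, carries both as a DP cell, and after selection keeps 1 of them as a CD4 or CD8 single-positive (SP) cell. In mature CD8 cells Cd4 is shut off by a silencer in its first intron that Runx proteins bind, and Cd8 is driven by several enhancers in and around the pair of genes.

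All 3 genes lie on chromosome 6 (GRCm38, GENCODE gene models). Cd4 (ENSMUSG00000023274.14) spans chr6:124864692-124888221 on the minus strand. Cd8b1 (ENSMUSG00000053044.8) spans chr6:71322788-71337494 and Cd8a (ENSMUSG00000053977.13) spans chr6:71373427-71379173, both on the plus strand, and these neighbours are treated below as 1 Cd8 locus. The Cd8a promoter from RefSeq (GRCm38.p6) and the centres of 5 peaks are shown, since the accessibility results turn on these regions. Each is 300 bases on the plus strand of GRCm38.p6, and capitals mark matches on either strand to the core motifs of E proteins (CAGNTG), Runx (TGTGGT) and Tcf (CTTTGA).
Cd8a promoter, chr6:71373177-71373476: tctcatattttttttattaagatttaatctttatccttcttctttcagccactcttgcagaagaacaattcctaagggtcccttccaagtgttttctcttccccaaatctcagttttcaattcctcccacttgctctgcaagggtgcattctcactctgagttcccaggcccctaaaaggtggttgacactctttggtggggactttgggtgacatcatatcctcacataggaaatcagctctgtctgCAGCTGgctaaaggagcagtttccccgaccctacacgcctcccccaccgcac
Cd4 intron 1, chr6:124886002-124886301: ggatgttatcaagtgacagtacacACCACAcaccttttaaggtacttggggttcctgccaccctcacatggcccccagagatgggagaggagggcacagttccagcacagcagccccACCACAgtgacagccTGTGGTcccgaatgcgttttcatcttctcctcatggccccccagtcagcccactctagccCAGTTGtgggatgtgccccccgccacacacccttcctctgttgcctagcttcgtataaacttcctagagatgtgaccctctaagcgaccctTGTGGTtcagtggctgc
Cd4 upstream, chr6:124900436-124900735: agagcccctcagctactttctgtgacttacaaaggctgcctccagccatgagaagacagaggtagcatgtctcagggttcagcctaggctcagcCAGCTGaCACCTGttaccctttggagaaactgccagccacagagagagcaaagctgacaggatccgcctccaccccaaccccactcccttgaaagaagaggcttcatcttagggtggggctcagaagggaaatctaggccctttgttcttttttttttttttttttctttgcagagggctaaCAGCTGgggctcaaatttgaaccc
Cd8b1 upstream, chr6:71307596-71307895: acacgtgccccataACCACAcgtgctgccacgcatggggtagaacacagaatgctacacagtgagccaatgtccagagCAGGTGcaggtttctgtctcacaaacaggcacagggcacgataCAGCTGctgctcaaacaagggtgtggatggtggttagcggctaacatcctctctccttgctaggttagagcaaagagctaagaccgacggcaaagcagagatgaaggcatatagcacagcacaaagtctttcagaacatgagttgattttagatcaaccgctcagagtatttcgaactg
Cd8b1 intron 4, chr6:71333113-71333412: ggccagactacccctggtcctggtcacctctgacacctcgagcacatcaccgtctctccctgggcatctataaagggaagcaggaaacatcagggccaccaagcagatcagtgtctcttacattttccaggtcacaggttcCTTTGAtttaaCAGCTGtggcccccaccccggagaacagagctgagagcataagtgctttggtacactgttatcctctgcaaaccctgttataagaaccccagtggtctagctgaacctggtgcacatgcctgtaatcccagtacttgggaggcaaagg
Cd8a upstream, chr6:71369435-71369734: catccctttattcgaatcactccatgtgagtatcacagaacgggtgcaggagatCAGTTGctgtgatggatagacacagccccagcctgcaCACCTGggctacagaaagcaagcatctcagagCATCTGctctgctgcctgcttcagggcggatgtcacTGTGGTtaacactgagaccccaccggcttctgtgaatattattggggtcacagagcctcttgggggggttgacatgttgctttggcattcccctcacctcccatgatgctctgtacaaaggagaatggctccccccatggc

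The Cd4 intron 1 window held 4 Runx matches, and windows with at least 4 made up 0.278% of the 138317 peak centres of the same length; that limit was chosen after the count was seen. The Cd8b1 upstream and Cd8a upstream windows held 1 Runx match each, and the Cd8b1 intron 4 window held 1 Tcf match. Each of the 6 windows held at least 1 E-box. Over all peak centres, 27.5% held a Runx match, 61.1% an E-box and 20.1% a Tcf match; over 32851 RefSeq promoters of 300 bases the shares were 16.8%, 51.4% and 16.0%. No window held the Gata motif AGATAA, which was in 12.1% of peak centres. These are matches of letters, not measured binding.

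The scRNA-seq values are log2 values that the authors quantile-normalised, and 99.0% of cells share 1 top value. A cell had a median of 1484 detected genes, and 79.7% of all values were 0. Cells were clustered without the 3 coreceptor genes, which therefore did not define the classes, and 16 clusters were named from fixed markers. The named classes were 78 DN-like, 157 ISP-like, 345 DP blast-like (DPbla), 498 DP rearranging-like (DPre), 223 CD4sp-like and 150 CD8sp-like cells, with 31 nonconventional lymphocyte-like (NCL) and 35 antigen-presenting cell-like (APC) cells. Clusters 4 (159 cells) and 3 (168 cells) scored highest for markers of DP cells under selection (DPsel). They are described by number, because the leading genes of cluster 3 held more markers of other classes (2) than of its own (1). Those of cluster 4 held 2 of its own and 0 of others. The DPsel label of both clusters in the figures stands for this marker score only. Cluster 8 (149 cycling cells) stayed unnamed, with scores of 0.26 for ISP and 0.24 for DPbla. The ISP-like name rests on a score of 1.22, and none of its markers was among the 10 leading genes of that cluster. Because names were rebuilt, a difference from the study may come from them.

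Depth differed between classes. To compare shares, each cell was also thinned to 1300 steps. A step counts how high a value stands when the different values found in a cell are put in order, and stands in for the molecules the table no longer holds. The median number of steps was 10043 for the ISP-like class, 5263 for DPbla-like and 4477 for cluster 8 cells, 3633 for DN-like cells, and 1881 to 2413 in the other classes. Ranks compress high values in deep cells. APC-like cells, which should lack Cd8b1, are given as a reference, and the part of free RNA or mixed droplets in their values was not tested. After thinning 57.1% (39.4 to 73.7%) had Cd8b1, 45.7% (28.8 to 63.4%) Cd8a and 14.3% (4.81 to 30.3%) Cd4, at a median of 2412 steps before thinning. In the same cells Rag1 was above 0 in 40.0% and Dntt in 57.1%, both genes of immature lymphocytes. No Cd8b1 share at or below the APC-like one is read here as expression. Dendritic cells can carry Cd8a and Cd4, so for these genes the APC-like share is only given beside the others, and it rests on 35 cells. NCL-like cells, of similar depth, had a lower Cd8b1 share of 35.5% (19.2 to 54.6%).

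By class mean all 3 genes were highest in DPre-like cells, for Cd8a by only 0.06 over DPbla-like cells, whose cluster 12 was higher still (3.30), and Cd8b1 was the most abundant of them in every class. The mean log2 value in DPre-like cells was 4.16 ± 0.68 (SD over 498 cells of 1 library) for Cd8b1, 2.98 ± 0.88 for Cd8a and 1.00 ± 0.92 for Cd4. These are levels from 3′ tags, which do not scale with transcript length. Cd8b1 was above 0 in 100% and Cd8a in 99.6% of DPre-like cells, whereas Cd4 was above 0 in 67.7%. After thinning, Cd4 was left in 50.4% (45.9 to 54.9%) of them, against 14.3% of APC-like cells.

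**Figure D1:**
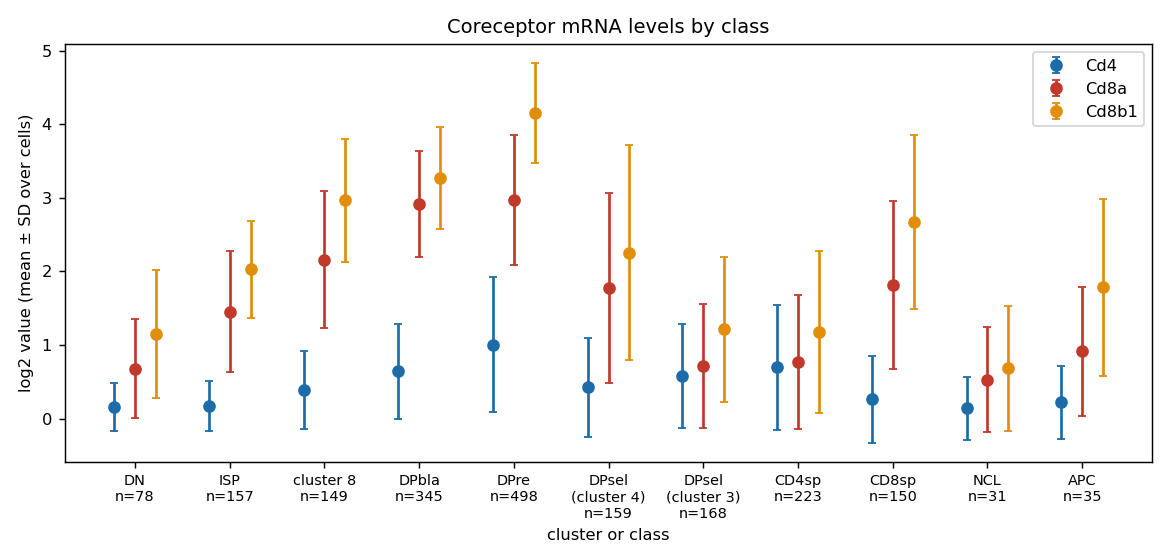
Mean log2 value (dots) with its SD over cells (bars) of Cd4, Cd8a and Cd8b1 in each class or cluster, with the number of cells below each name; all cells are from 1 library. Cd8b1 reaches 4.16 and Cd8a 2.98 in DPre-like cells, while Cd4 stays at or below 1.00 in every class.

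Before the DP stage Cd4 was near 0. Its mean log2 value was 0.16 ± 0.33 in DN-like and 0.18 ± 0.34 in ISP-like cells, and its thinned share of 5.13% (1.42 to 12.6%) and 7.64% (4.01 to 13.0%) lay at or below the APC-like share. As deposited, at a median of 10043 steps, 54.8% of ISP-like cells had a Cd4 value above 0. Cd8a and Cd8b1 had higher deposited values in ISP-like than in DN-like cells, at this greater depth: they were at 1.46 ± 0.82 and 2.03 ± 0.66, against 0.68 ± 0.68 and 1.15 ± 0.87 in DN-like cells. After thinning, 49.7% (41.6 to 57.8%) of ISP-like cells had Cd8a and 73.9% (66.3 to 80.6%) Cd8b1. Both intervals overlap those of APC-like cells, whose mean of 1.34 thinned Cd8b1 steps was close to the 1.33 of ISP-like cells, and the DN-like shares of 33.3% and 50.0% are below the APC-like ones.

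Between DN-like and ISP-like cells, Cd8b1 was higher by 0.89 and Cd8a by 0.78 in mean log2 value, and Cd4 by 0.02. A difference of at least 0.5 was taken as the limit for a call, among genes above 0 in at least 20% of the cells of either class; 2 of the 3 members passed it, against 8.28% of all 5967 genes compared. With thinned values the differences were 0.43 and 0.26, below that limit. From ISP-like to DPbla-like cells, which divide before they rearrange the T cell receptor α chain, Cd8a was higher by 1.46 and Cd8b1 by 1.24. They ranked 9 and 19 by size among 5878 genes, of which 4.71% passed the limit. Cd4 was higher by 0.46 in DPbla-like cells and did not pass.

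From DPbla-like to DPre-like cells the members parted. Cd8b1 was higher by 0.88 and passed the limit, as did 6.99% of the genes compared, while Cd4 was higher by 0.36 and Cd8a by 0.06. In thinned steps Cd4 went from a mean of 0.348 (0.288 to 0.416) per DPbla-like cell to 0.741 (0.667 to 0.821) per DPre-like cell. For Cd8b1 the mean number of thinned steps per cell was 5.74 (5.53 to 5.95) in DPre-like and 3.34 (3.15 to 3.54) in DPbla-like cells. For Cd8a it was 3.03 (2.88 to 3.18) and 2.69 (2.52 to 2.87), a narrower gap.

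Among the named classes the share of Cd8a among all Cd8 steps was highest in DPbla-like cells, at 44.6% (42.5 to 46.8%), against 34.5% (33.1 to 36.0%) in DPre-like cells. The intervals of cluster 4 (39.6%, 35.8 to 43.5%), cluster 3 (38.6%, 32.3 to 45.1%), CD4sp-like (37.8%, 32.6 to 43.2%), DN-like (34.9%, 24.9 to 45.9%) and NCL-like cells (37.5%, 18.8 to 59.4%) reached that of DPbla-like cells. Of the CD4sp-like clusters, cluster 13 had 47.2% (36.5 to 58.1%) and cluster 6 had 34.4% (28.5 to 40.7%). Cluster 8, whose depth was close to that of DPbla-like cells, had 35.9% (32.2 to 39.6%), as did ISP-like cells (35.9%, 30.7 to 41.4%) and CD8sp-like cells (35.9%, 32.2 to 39.7%). Among the DPbla-like clusters the share was 48.4% (45.1 to 51.7%) in cluster 1, 45.2% (41.1 to 49.3%) in cluster 10 and 38.6% (34.7 to 42.6%) in cluster 12. Cluster 12 thus overlapped the ISP-like and CD8sp-like classes. The part of depth and rank compression in this was not tested.

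**Figure D2:**
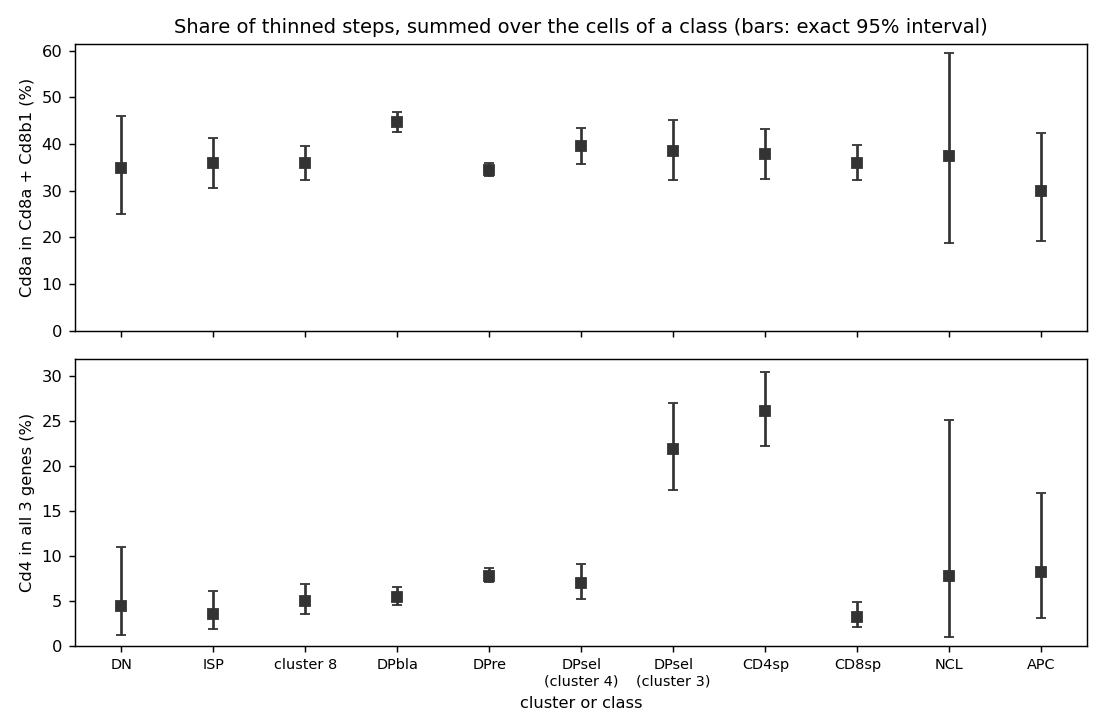
Upper panel, Cd8a as a percent of the thinned steps of Cd8a and Cd8b1; lower panel, Cd4 as a percent of the thinned steps of all 3 genes; squares are sums over the cells of a class or cluster and bars exact 95% intervals. DPbla-like cells stand at 44.6% in the upper panel, and cluster 3 (21.9%) and CD4sp-like cells (26.2%) stand above all other classes in the lower one, apart from the wide NCL-like interval.

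All 3 members were lower in cluster 4 than in DPre-like cells. Cd8b1 was lower by 1.90 (2.25 ± 1.46 against 4.16 ± 0.68), Cd8a by 1.20 and Cd4 by 0.58. Each passed the limit, which 3.60% of all 2308 genes did, and Cd8b1 ranked 3 by size. With thinned values Cd8b1 (-1.16) and Cd8a (-0.72) still passed, and Cd4 (-0.35) did not. Cluster 4 was also mixed: the SD of Cd8b1 over cells was 1.46, and the values ran from 0 at the lower decile to 4.15 at the upper.

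Between clusters 4 and 3 the Cd8 genes passed the limit and Cd4 did not. Cluster 4 was put before cluster 3 for its higher Cd8b1 mean, so the direction of the Cd8b1 difference was set in advance. Cd8a ran with Cd8b1 over cluster means (r = 0.97). In cluster 3 Cd8a was lower by 1.06 (rank 9) and Cd8b1 by 1.04 (rank 11), both past a limit that 3.32% of 2231 genes passed, while Cd4 was higher by 0.15. After thinning 36.9% (29.6 to 44.7%) of cluster 3 cells had Cd8a and 56.6% (48.7 to 64.2%) Cd8b1, at or below the APC-like shares, and 31.0% (24.1 to 38.5%) had Cd4. The share of Cd4 among all thinned steps of the 3 genes was 21.9% (17.3 to 27.0%) in cluster 3 and 6.97% (5.18 to 9.13%) in cluster 4. It was 7.80% (7.05 to 8.60%) in DPre-like and 8.22% (3.08 to 17.0%) in APC-like cells.

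CD4sp-like cells were close to cluster 3 for all members. Cd4 was at 0.70 ± 0.85, Cd8a at 0.77 ± 0.91 and Cd8b1 at 1.18 ± 1.10, differences of 0.12, 0.05 and -0.03 from cluster 3. None of the 3 passed the limit, which 1.58% of all 2283 genes did. On the markers that told CD4sp-like cells apart, cluster 3 scored 0.67, against 0.38 in cluster 6, 0.90 in cluster 13 and -0.14 in cluster 4. CD8sp-like cells had more of both Cd8 genes than cluster 3: Cd8b1 was higher by 1.46, rank 2 of 2545 genes, and Cd8a by 1.11, against 1.73% of genes past the limit. Cluster 3 was used here because its Cd8b1 mean was below that of cluster 4. Cluster 4 was closer to CD8sp-like cells, with means of 1.77 for Cd8a and 2.25 for Cd8b1 against 1.82 and 2.68. Compared with cluster 3, Cd4 was lower by 0.31 in CD8sp-like cells, and its thinned share there of 12.7% (7.80 to 19.1%) lay at the APC-like share.

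Set against each other, CD4sp-like and CD8sp-like cells differed in Cd8b1 more than in any other of 2552 genes. The mean over 223 CD4sp-like cells was 1.18 ± 1.10 and that over 150 CD8sp-like cells 2.68 ± 1.19, a difference of -1.50. Cd8a differed by -1.05 (rank 3), and Cd4 by 0.43 (rank 17), short of the limit that 0.509% of genes passed. The Cd8a and Cd8b1 shares in CD4sp-like cells after thinning, 39.5% (33.0 to 46.2%) and 54.7% (47.9 to 61.4%), were at or below those of APC-like cells. Over the levels of Cd4 in thinned steps, DPre-like cells (0.741, 0.667 to 0.821) stood above CD4sp-like cells (0.534, 0.442 to 0.639). These were followed by cluster 3 (0.393), DPbla-like cells (0.348) and cluster 4 (0.302), and each of these neighbours had overlapping intervals. Cluster 8 (0.235), APC-like (0.171), CD8sp-like (0.147), ISP-like (0.0764), NCL-like (0.0645) and DN-like cells (0.0513) came last, again with overlap between neighbours.

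The order of Cd8b1 was DPre-like, DPbla-like, cluster 8 (2.88), CD8sp-like (2.82), cluster 4 (2.43), APC-like (1.34), ISP-like (1.33), CD4sp-like (0.937), cluster 3 (0.863), DN-like (0.718) and NCL-like cells (0.484). DPre-like and DPbla-like cells stood apart from each other, and the interval of cluster 8 (2.61 to 3.17) reached that of DPbla-like cells. The interval of cluster 4 (2.20 to 2.69) lay above that of APC-like cells (0.987 to 1.79). For Cd8a, DPre-like and DPbla-like cells were followed by cluster 8 (1.61), cluster 4 (1.60) and CD8sp-like cells (1.58), which overlapped, and then by ISP-like (0.745), APC-like (0.571), CD4sp-like (0.570), cluster 3 (0.542), DN-like (0.385) and NCL-like cells (0.290).

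The SP-like cells were also split by 2 transcription factors, without use of the members. Zbtb7b encodes ThPOK, which directs CD4 fate, and Runx3 directs CD8 fate. Zbtb7b without Runx3 was found in 37 cells and Runx3 without Zbtb7b in 115, while 6 cells had both and 215 neither. Cd4 was at 0.85 ± 0.96 in the Zbtb7b cells and 0.24 ± 0.55 in the Runx3 cells, a difference of 0.62. Cd8a was at 0.73 ± 0.68 and 1.84 ± 1.13, a difference of -1.11, and Cd8b1 at 1.42 ± 1.07 and 2.47 ± 1.26, a difference of -1.05. All 3 members passed the limit, against 0.676% of 2809 genes, with ranks of 10, 3 and 4. The Cd4 difference was 0.35 with thinned values and 0.40 when the factors counted as present above a log2 value of 1, both short of the limit. The spread over cells was of the size of the differences (pooled SD 0.78, 0.93 and 1.17), so single cells of the 2 sets overlapped widely.

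Cells with Cd4 and neither Cd8 gene were few in every class. As deposited, DPre-like cells with all 3 genes made up 67.3% (62.9 to 71.4%), and 0 of 498 had Cd4 alone, since Cd8b1 was above 0 in each of these cells. In CD4sp-like cells Cd4 alone was seen in 7.17% (4.16 to 11.4%) and, after thinning, in 13.0% (8.89 to 18.1%), and Cd8 alone in 36.8% and 44.4%. In CD8sp-like cells Cd8 alone was seen in 74.0% (66.2 to 80.8%), and after thinning in 80.7% (73.4 to 86.7%). APC-like cells had Cd8 alone in 68.6% (50.7 to 83.2%), so that pattern does not mark a CD8 cell in these data. Cd4 alone was in 2 CD8sp-like cells (1.33%).

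**Figure D3:**
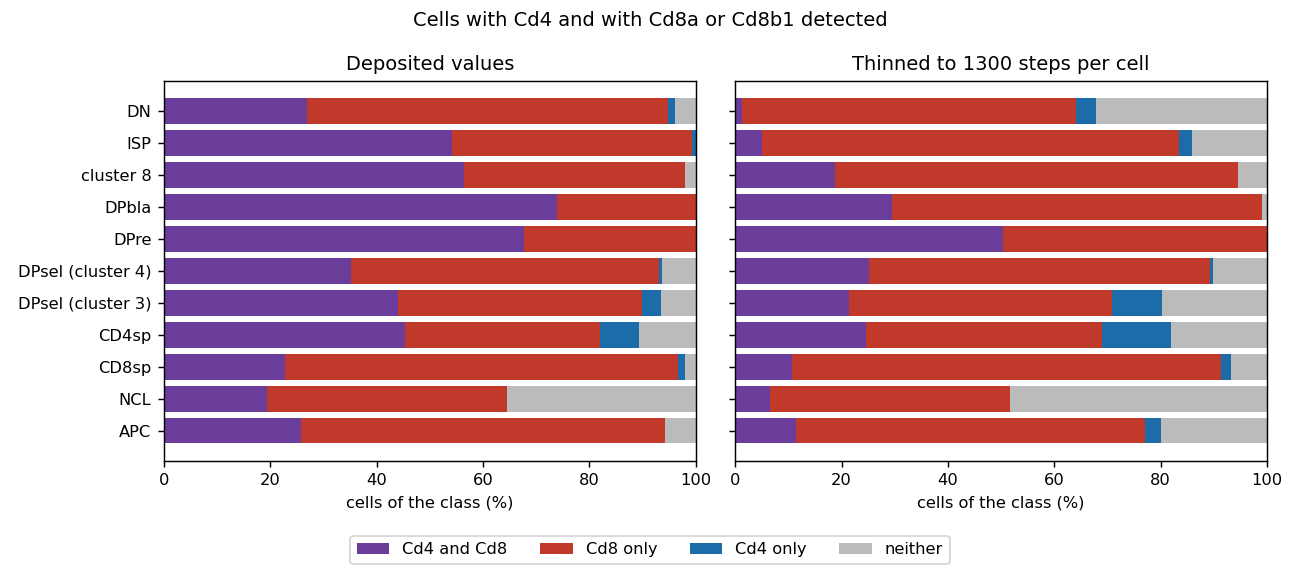
Percent of the cells of each class or cluster with Cd4 and at least 1 of Cd8a and Cd8b1, with Cd8 only, with Cd4 only, or with neither, from the deposited values (left) and after thinning each cell to 1300 steps (right). The Cd4-only part is widest in CD4sp-like cells (7.17% and 13.0%) and next in cluster 3 (3.57% and 9.52%).

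Across the cells of a cluster, the relation between members is described by Pearson's r over thinned values of cells that share 1 library and its depth. Cd8a and Cd8b1 went together in cluster 4 (r = 0.51, 159 cells), cluster 3 (0.35, 168 cells), cluster 7, which holds all CD8sp-like cells (0.32, 150 cells), and cluster 6, the larger of the CD4sp-like clusters (0.40, 152 cells). The r was 0.07 in cluster 13, the smaller one (71 cells), and 0.03, -0.08 and -0.0018 in the DPre-like clusters. Cd4 ran against Cd8b1 in CD8sp-like cells (-0.20, 150 cells) and showed r of -0.10 in the ISP-like cluster and 0.09, 0.12 and 0.15 in the DPre-like clusters. Values this small in sparse data are no finding.

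Over the 16 cluster means, Cd8a and Cd8b1 were each other's nearest gene among 6504 compared (r = 0.97). After Cd8b1, Cd8a was most like Glcci1 (0.94), Agfg2 (0.93), Endou (0.93) and Pycard (0.93), an inflammasome adaptor. After Cd8a, Cd8b1 was most like Rmnd5a (0.93), which lies next to Cd8a on the chromosome, Prep (0.92), Clk3 (0.91) and Eci2 (0.91). Rmnd5a and Endou were among the markers that named DPre-like cells. Cd4 was most like Nsg2 (0.95), a neuronal vesicle protein, Dusp10 (0.86), Stx6 (0.86), Ndrg3 (0.86) and Capn3 (0.85), ahead of Cd8b1 (0.67) and Cd8a (0.65). The clusters share a library, and these r values have no test.

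The partners of the coreceptors were compared over the same steps. Of 11 partner genes (Lck, Csk, Cd3e, Trac, Trbc1, Trbc2, Themis, Ptprc, Cd2, Cd5 and Lag3), 10 could be compared at each step. None was higher and 2 of 10 were lower in ISP-like than in DN-like cells, where 8.28% of all genes passed in either direction: Lck, the coreceptor-bound kinase (-0.72), and Cd3e (-0.59). In DPbla-like against ISP-like cells 0 of 10 passed, against 4.71% of all genes, and in DPre-like against DPbla-like cells 1 of 10 did, against 6.99%, with Trbc2 higher by 0.56. In cluster 4, where all members were lower, 3 of 10 partners were higher and none lower, against 3.60% of all genes in either direction: Trac, the receptor α chain, by 1.39, the adhesion gene Cd2 by 1.25, and Cd5, an inhibitor of receptor signalling that also served to name the class, by 1.01. In cluster 3 against cluster 4, where 3.32% of genes passed, Cd2 was higher by 0.56, and Trbc2 (-0.75), Cd5 (-0.59) and Trbc1 (-0.57) were lower. Lck did not pass at these last steps, with -0.36 and -0.45. Among the SP-like steps, Cd2 was lower in CD8sp-like cells than in cluster 3 (-0.53), where 1.73% of all genes passed, and no other partner passed. Of these 11 calls, 5 also passed with thinned values: Lck and Cd3e in ISP-like cells and Trac, Cd2 and Cd5 in cluster 4. The other 6 had thinned differences from -0.45 to 0.44. The median partner difference was 0.17 for the step to DPbla-like cells, against -0.0026 over all genes, and 0.15 for the step to DPre-like cells, against -0.02. It was 0.09 in cluster 4 against -0.0047, and -0.44 in cluster 3 against -0.0039.

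Of 24 regulators of the 2 loci, 19 to 23 could be compared at each step. In ISP-like against DN-like cells, where 8.28% of all genes passed, Tcf7 (0.80) and Satb1 (0.53) were higher, and Bcl11b (-0.82), Patz1 (-0.60), Runx1 (-0.53) and Myb (-0.52) were lower. Satb1, a chromatin organiser, was the 1 regulator past the limit in DPbla-like cells (0.81), 1 of 22 against 4.71% of all genes, and 0 of 20 passed in DPre-like cells, against 6.99%. In cluster 4, where 3.60% of all genes passed, 4 of 19 were higher: Lef1 (1.09), Tox (1.05), Ikzf1 (0.72) and Gata3 (0.57), and Bcl11b was lower (-0.64). In cluster 3 against cluster 4, where 3.32% passed, Myb (-0.67), Tcf7 (-0.60) and Ikzf1 (-0.60) were lower and none higher. Both SP-like classes had less Satb1 than cluster 3 (-1.58 for the CD4sp-like and -1.36 for the CD8sp-like class). Tox was lower in CD4sp-like cells (-0.57), and in CD8sp-like cells Ets1 was lower (-0.59) and Runx3 higher (0.69), at steps where 1.58% and 1.73% of all genes passed. Of these 20 calls, at steps along the order of classes, 6 also passed with thinned values: Bcl11b in ISP-like cells (-0.70), Satb1 in DPbla-like cells (0.62), Lef1 (0.67) and Tox (0.65) in cluster 4, and Satb1 in both SP-like classes (-1.13 and -0.98). The other 14 did not, among them Runx3 in CD8sp-like cells (0.44). Between CD4sp-like and CD8sp-like cells 1 of 20 regulators passed, Runx3 (-0.62), against 0.509% of all genes, and its thinned difference of -0.38 did not pass. Runx3 and Zbtb7b helped to name these classes. Zbtb7b was above 0 in 20.2% of cluster 3 and 1.89% of cluster 4 cells, and in the SP-like classes in 17.0% of CD4sp-like against 3.33% of CD8sp-like cells. The median regulator difference ran from -0.06 in cluster 3 against cluster 4 to 0.05 in ISP-like against DN-like cells, beside -0.0039 and 0.0091 over all genes.

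Accessibility was read as counts of fragments in peaks of 4000 bp that the authors called on all cells together. The Cd4 locus, from 20 kb before to 20 kb past the gene and without the promoter peaks of other genes, held 48 peaks, of which 10 do not overlap one another (separate peaks). The Cd8 locus, from 20 kb before Cd8b1 to 20 kb past Cd8a, held 137 peaks, 17 of them separate. The total counts in peaks were 1108749 in DN, 478264 in DP, 558091 in CD4, 494645 in CD8 and 6402950 in total thymus cells, with medians per cell from 2571 to 5792, and 7 DN, 9 DP, 23 CD4, 25 CD8 and 9 total thymus cells held under 1000. The sorts were made on the proteins these genes encode.

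The labels of the sorts were checked at other loci. The signal at Zbtb7b was 1.74 counts per 10000 in CD4 and 0.404 in CD8 sorted cells, and that at Cd40lg, a CD4 T cell gene, 1.13 and 0.586. Rag1, a gene of DP cells, was highest in DP among the sorts (3.95), but CD8 sorted cells held 1.80 against 0.394 in CD4 sorted cells. Runx3 hardly separated CD8 (2.41) from CD4 (2.10) and DN (2.31) sorted cells. Il2ra, a DN gene, was at 2.29 in DN and 3.70 in DP sorted cells, against its label. The part of DP or immature CD8 cells in the CD8 sort was not tested.

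Among the 4 sorts, the Cd8 locus was most open in DP and CD8 sorted cells. Its signal per 10000 counts was 4.31 in DN, 17.4 in DP, 3.67 in CD4, 10.9 in CD8 and 20.4 in total thymus cells, where the 36 label series ranged from 15.9 to 24.6. CD8 over CD4 sorted cells gave a ratio of 2.98 over all peaks and 3.18 (2.37 to 4.33) over separate peaks. DP over DN gave 4.04 and 3.12 (2.57 to 3.80), DP over CD4 4.74 and 4.61 (3.48 to 6.20), and DP over CD8 1.59 and 1.45 (1.19 to 1.77). At least 1 count at the locus was found in 47.8% of DN, 82.4% of DP, 47.1% of CD4 and 69.8% of CD8 sorted cells.

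The Cd4 locus differed less. Its signal per 10000 counts was 2.17 in DN, 4.20 in DP, 2.96 in CD4, 2.67 in CD8 and 4.94 in total thymus cells, where the 36 label series ranged from 3.27 to 7.44. DP over DN gave 1.93 over all peaks and 1.92 (1.41 to 2.63) over separate peaks. CD4 over CD8 sorted cells gave 1.11 over all peaks and 0.792 (0.548 to 1.14) over separate peaks, so the order of these sorts turned with the choice of peaks and the interval includes 1. At least 1 count was found in 48.9% of DN, 57.6% of DP, 48.7% of CD4 and 47.4% of CD8 sorted cells.

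**Figure D4:**
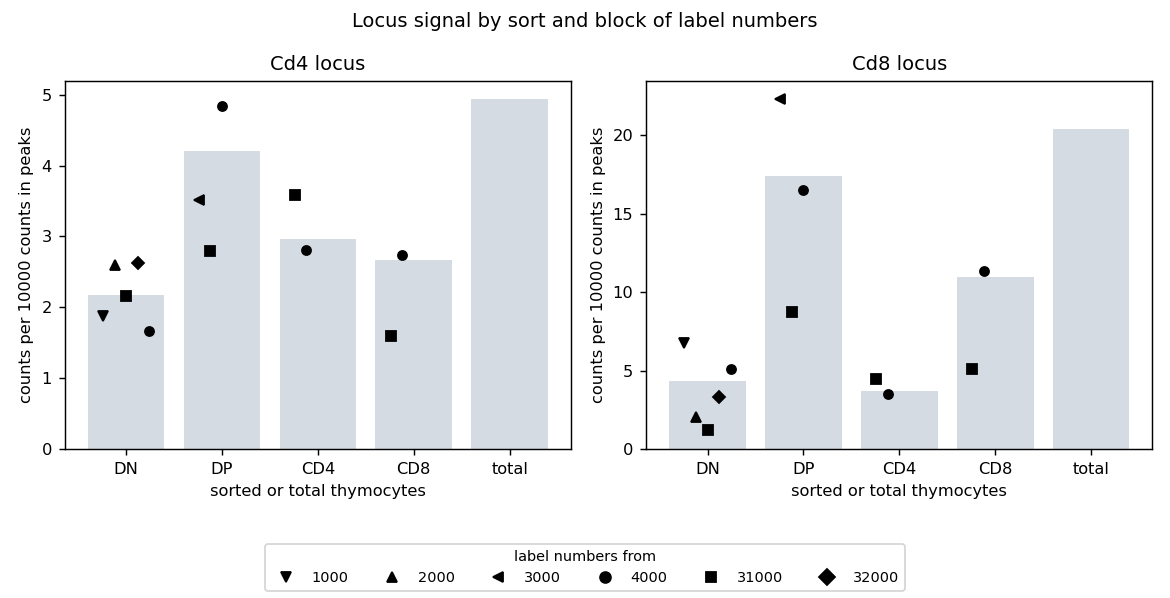
Signal at the Cd4 locus (left) and the Cd8 locus (right) in counts per 10000 counts in peaks; bars are all cells of a sort or of total thymus and symbols are blocks of label numbers within a sort. At the Cd8 locus the DP blocks run from 8.74 to 22.3 and the DN blocks from 1.22 to 6.74.

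The cell labels carry numbers in blocks, whose meaning is not given, and the blocks from 4000 and from 31000 held cells of all 4 sorts. In the block from 4000, CD8 over CD4 at the Cd8 locus was 3.24, and in the block from 31000 it was 1.15, on 16 counts in 20 CD8 cells and 47 in 55 CD4 cells. The separate peaks of that block gave 1.50 (0.338 to 5.38), so the Cd8 difference rests on the block from 4000, which held all but 16 of the CD8 counts. DP over DN at the Cd8 locus was 3.24 and 7.18 in these blocks, the latter on 47 and 9 counts. DP over CD4 there was 4.72 in the block from 4000 and 1.97 in the block from 31000, on 47 counts each, where separate peaks gave 3.07 (1.24 to 8.03). At the Cd4 locus CD4 over CD8 was 1.02 and 2.25, the latter on 38 and 5 counts, where separate peaks gave 0.986 (0.254 to 5.58). DP over DN at that locus was 2.91 and 1.29. Within the DN sort, the Cd8 signal was 6.74 in the block from 1000 and 2.05 in the block from 2000.

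Peak by peak, few peaks could be compared. Peaks with at least 20 counts summed over 2 sorts were compared, and a ratio of at least 2 or at most 0.5 was taken as a call. Of the 137 Cd8 peaks, 5 entered for CD4 over CD8 and 14 for DP over DN. A peak could enter through the sort in which it was high, so the counts below do not test a direction. In CD4 over CD8 sorted cells, 5 of 5 Cd8 peaks compared were at or below 0.5, against 10.3% of all 13196 peaks, and 0 were at or above 2. At the Cd4 locus 1 of 4 was at or above 2, against 12.8% of all peaks, and 0 were at or below 0.5. In DP over DN, 13 of 14 Cd8 peaks and 1 of 5 Cd4 peaks were at or above 2, against 12.6% of 20464 peaks. Many of these peaks overlap: of the separate peaks, 4 of 4 and 7 of 8 Cd8 peaks were past the limit.

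Among the separate peaks with at least 20 counts, the largest CD8 to CD4 ratio lay 15.0 kb upstream of Cd8b1 (chr6:71305746-71309745, in intron 1 of Smyd1), the Cd8b1 upstream window above. It held 18 DN, 30 DP, 3 CD4 and 30 CD8 counts, a CD8 over CD4 ratio of 11.3 (3.51 to 57.8) and a DP over DN ratio of 3.86 (2.09 to 7.36). The peak 3.84 kb upstream of Cd8a (chr6:71367585-71371584, between genes) held 21, 38, 8 and 26 counts in the same order, with ratios of 3.67 (1.61 to 9.37) and 4.20 (2.40 to 7.52). The peak at the Cd8b1 start (chr6:71320692-71324691) held 37, 42, 24 and 43, with 2.02 (1.20 to 3.48) and 2.63 (1.65 to 4.21), and so was the Cd8 peak most open in CD4 sorted cells. At the Cd8a start (chr6:71371454-71375453, which overlaps its neighbours) the counts were 12, 27, 2 and 20. The ratio of CD8 to CD4 there was 11.3 (2.74 to 99.6) on few counts.

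Other Cd8 peaks differed in how DP and CD8 sorted cells compared, at a locus where DP over CD8 was 1.59 over all peaks. The peak in intron 4 of Cd8b1 (chr6:71331263-71335262) held 25 DN, 27 DP, 0 CD4 and 9 CD8 counts. Its level per 10000 counts was 0.564 in DP and 0.182 in CD8 sorted cells. The CD8 level was 3.39 times that of CD4, taking 3 counts as the limit of a sort with 0 and leaving out the counting error of the CD8 counts. The peak 12.5 kb upstream of Cd8a (chr6:71358890-71362889, between genes) held 6, 21, 2 and 6 counts, with a DP over DN ratio of 8.11 (3.17 to 24.6). The peak 19.6 kb upstream of Cd8a (chr6:71351880-71355879) held 13, 19, 9 and 23, with CD8 over CD4 at 2.88 (1.29 to 7.08), and was at 0.397 in DP and 0.465 in CD8 sorted cells. The part of the sort's purity in these patterns was not tested.

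**Figure D5:**
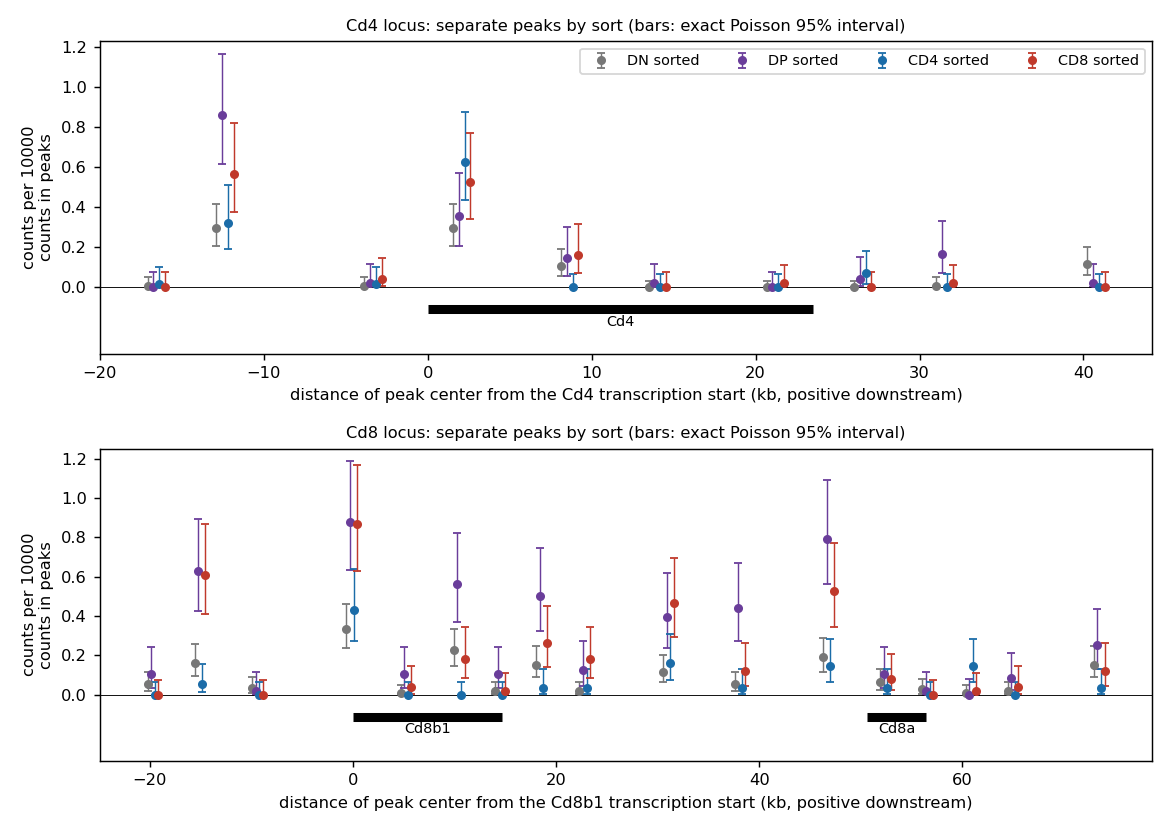
Counts per 10000 counts in peaks of each sort (dots) with exact Poisson 95% intervals (bars) for the separate peaks of the Cd4 locus (upper) and the Cd8 locus (lower), by distance of the peak centre from the Cd4 or the Cd8b1 transcription start in kb along the direction of transcription; black bars are genes. At 15.0 kb upstream of Cd8b1, DP (0.627) and CD8 (0.606) stand above DN (0.162) and CD4 (0.0538).

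At the Cd4 locus, 2 separate peaks held most counts. The one 12.4 kb upstream of Cd4 (chr6:124898586-124902585, between genes) held 33 DN, 41 DP, 18 CD4 and 28 CD8 counts, with DP over DN at 2.88 (1.78 to 4.70) and CD8 over CD4 at 1.76 (0.937 to 3.37). The peak in intron 1 (chr6:124884152-124888151), whose centre holds the 4 Runx matches, held 33, 17, 35 and 26 counts. It was highest per 10000 counts in CD4 sorted cells at 0.627, with 0.526 in CD8, 0.355 in DP and 0.298 in DN, and CD4 over CD8 was 1.19 (0.698 to 2.06). A peak that overlaps it (chr6:124883373-124887372) held 33 CD4 and 13 CD8 counts, a ratio of 2.25 (1.15 to 4.66), and was the 1 Cd4 peak past the limit for CD4 over CD8. In intron 2 (chr6:124877553-124881552) the counts were 12, 7, 0 and 8. The CD8 level was 3.01 times a limit of 3 counts set for the CD4 sort, which leaves out the counting error of the CD8 counts.

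Beside the RNA, the Cd8 locus and its genes shared an order in part: the signal was higher in DP and CD8 than in CD4 sorted cells, and the means were higher in DPbla-like, DPre-like and CD8sp-like than in CD4sp-like cells. In cluster 3, at 0.71 for Cd8a and 1.21 for Cd8b1, they were close to those of CD4sp-like cells. DN cells did not follow the order: the signal was 4.31 in DN against 3.67 in CD4 sorted cells, while the DN-like means of 0.68 for Cd8a and 1.15 for Cd8b1 were not above those of CD4sp-like cells (0.77 and 1.18). The mean of Cd8b1 was 2.68 in CD8sp-like and 1.18 in CD4sp-like cells, and the Cd8 signal 10.9 and 3.67 in CD8 and CD4 sorted cells. For Cd4 the RNA mean of CD4sp-like cells was 0.70 and that of CD8sp-like cells 0.26, and the locus signal of CD4 and CD8 sorted cells was 2.96 and 2.67 over all peaks, with the opposite order over separate peaks (ratio 0.792, 0.548 to 1.14). The 2 assays are of different cells, and sorts are not the rebuilt classes.

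Markers of other cells were read in the same classes. Of 4 B cell markers, all were above 0 in more than 20% of APC-like cells, with a mean summed level of 3.86 against 0.13 over all cells. In DN-like cells Cd79b alone of them was above 0, in 37.2% of cells, with a sum of 0.16, and in the remaining classes the sum was 0.02 to 0.11. The 3 macrophage markers summed to 1.27 in APC-like cells and to 0.08 to 0.21 in the other classes, with Lyz2 in over 20% of APC-like and of ISP-like cells. The 1 erythroid marker in the table, Hbb-bs, was at 0.03 over all cells, and its partners Hba-a1 and Alas2 were not in the table. DN-like cells held the epithelial marker Epcam in over 20% of cells, with a mean sum of 0.35 for Epcam and Krt8. The plasmacytoid markers Siglech and Bst2 summed to 1.60 in APC-like and 1.25 in DN-like cells, and to 0.22 to 0.60 in the other classes. In DN-like cells this was Bst2 alone, with Siglech at 0 in every cell. The part of other cells in the coreceptor levels was not tested.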

How the data were processed

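Thymocytes were profiled by 10x Genomics 3′ V2 scRNA-seq and by scATAC-seq. Per the study's methods, the authors aligned scRNA-seq reads with Cell Ranger 1.3.1 to GRCm38.p5, removed ribosomal, mitochondrial and pseudogene RNA, and quantile-normalised; the deposited values are on a log2 scale and 99.0% of cells share 1 top value (7.14), so molecule counts could not be recovered. Of the 1993 cells, 1986 lie within the study's limits of 500 to 4500 detected genes, the number it analysed; all were kept. For scATAC-seq the authors trimmed adapters, mapped with Bowtie2, removed duplicates with Picard and called peaks over the merged cells with MACS2; the deposited table holds raw counts per peak and cell. Its build is not stated and was taken as GRCm38: 22.5% of peak centres had a transcription start within 2 kb, and 6.21% when moved by 100000 bp. Not used were 362 of its columns: 352 of total thymus, a block with label numbers from 5000 that the values of total thymus leave out, and 10 whose group the labels do not give.

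The members and lists were chosen with earlier results of these data known. Clustering used Seurat 5.3.0 (R 4.3.3) and 1304 variable genes without the members (20 principal components, 30 neighbours, resolution 2), and clusters took the name of the best marker score, by a margin of 0.1. No doublet caller was run; a stand-in left out 103 cells, the 5% with most genes in each cluster. Genes named are the members, the 5 most like each over cluster means, and the fixed pathway lists. A call is a difference of at least 0.5 in mean log2 value, or a peak ratio of at least 2 or at most 0.5 with at least 20 counts. Intervals are Clopper-Pearson for shares, exact Poisson for sums, and for ratios from the binomial split of the counts of separate peaks. Scripts (Python 3.11.15, scipy 1.17.1) were tested on simulated data. Of the 3 members, Cd8a was matched in the RefSeq promoter table used here.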

Additional observations from a re-analysis of the deposited data

How the results depend on the processing

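For RNA values 7 settings were tried and for accessibility ratios 9, giving 85 alternative values. Of the 64 for shares and ratios, 43 stayed within the counting interval of the value reported. As deposited, the ISP-like shares were 54.8% for Cd4, 97.45% for Cd8a and 99.36% for Cd8b1, and 67.3% of DPre-like cells had all 3 genes. Thinning gave ISP-like shares of 7.64% for Cd4, 49.7% for Cd8a and 73.9% for Cd8b1, and 47.8% of DPre-like cells with all 3 genes. Counting a gene as detected above a log2 value of 1 gave 5.73%, 73.9%, 94.3% and 42.2%. With 20 neighbours, Cd8b1 was in 100% of 92 ISP-like cells. The size of the ISP-like class itself ran from these 92 cells to 300 at resolution 1, against 157 as reported. For the 3 differences between SP lineages the only error is 1 SD over cells, which exceeds the Cd4 and Cd8b1 differences themselves and so cannot show a shift. They kept their direction under 7 alternatives, from 0.35 to 0.71 for Cd4, -1.41 to -0.63 for Cd8a and -1.50 to -0.54 for Cd8b1.

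For CD4 over CD8 at the Cd4 locus, the peak nearest the start gave 0.443 on 3 counts. Label numbers from 31000 gave 2.25, or 0.986 over separate peaks. For CD8 over CD4 at the Cd8 locus, label numbers from 31000 gave 1.15. For DP over DN at the Cd4 locus, the nearest peak gave 20.9 on 10 counts, the mean per cell without scaling 1.21, and label numbers from 4000 and 31000 gave 2.91 and 1.29. For DP over DN at the Cd8 locus, separate peaks gave 3.12, the peaks nearest the starts 3.26, the mean per cell 2.54, and the blocks 3.24 and 7.18. The cause of these shifts was not tested. No paired analysis was possible because no cell label ties cells of different sorts to 1 animal and no test was run. Such low values rest on few steps: a CD4sp-like cell had a mean of 0.534 thinned steps of Cd4 and 0.570 of Cd8a.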
